A study of Mus musculus with 4 samples.

Results

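The multidrug and glutathione conjugate exporters are 8 mouse genes for ATP-binding cassette (ABC) pumps: Abcc1, Abcc2, Abcc3, Abcc4, Abcc5, Abcb1a, Abcb1b and Abcg2. Their members were found by gene symbol among the array probes outside the controls, which gave 17 of 40628 gene probes, for 8 of 29353 gene symbols. The array carried 1 probe each for Abcb1a and Abcc2, a pair each for Abcc3, Abcc4 and Abcg2, and 3 each for Abcb1b, Abcc1 and Abcc5, numbered here within each gene in order of signal.

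Total RNA came from C3H10T1/2 cells, a line of mouse embryo fibroblasts, and was hybridised to 4 one-colour arrays. All of the cells had been transformed chemically: 2.5 µg/ml of the carcinogen 3-methylcholanthrene for 2 days, 4 days without it, the phorbol ester TPA at 100 ng/ml over 2 weeks, and 4 weeks in normal medium. The control group (n = 2) was the transformed cells alone, and the phorone group (n = 2) was the same transformed cells exposed to 2 mM phorone, so the carcinogen and TPA were shared by both groups and no untransformed sample is compared here. How long phorone was given, and in which vehicle, is not stated in these sources, and the cultures were scored as carrying transformed foci, so a culture may hold transformed and untransformed cells side by side. Whether the arrays of a group represent separate cultures is not stated either, so the p-values cover the spread among these samples alone, which may be technical.

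Phorone is an unsaturated ketone that reacts with glutathione and lowers its level in cells. The glutathione conjugates that form in such reactions are too polar to cross the membrane and leave the cell through ATP-driven pumps of the C family, known as multidrug resistance-associated proteins. P-glycoprotein, which rodents encode in the gene pair Abcb1a and Abcb1b, and the breast cancer resistance protein Abcg2 pump other drugs and toxins, mostly hydrophobic ones or sulfate conjugates. The comparison asked which of these pumps differed in messenger RNA between transformed cells with and without phorone.

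With phorone, Abcb1b messenger RNA was 3.38-fold and 3.39-fold higher on its tested probes, and Abcc4 was 2.30-fold and 4.97-fold higher. Abcc3 was 6.12-fold lower on the single probe that was tested. One of 3 probes of Abcc5 and both lower-signal probes of Abcc1 were called higher by less, and Abcg2 was called in neither direction. Abcb1a and Abcc2 were not well above background on any array. Of the 17 probes, 13 were tested, for 6 of the 8 genes, and all 13 were well above background on all 4 arrays. Of the 13, 7 were called higher (limma, adjusted p below 0.05) and 1 was called lower, against 25.5% of all 24259 tested gene probes called higher and 20.3% called lower, and 45.7% called in either direction. The 7 probes belonged to only 4 genes, and Abcc1 probes 2 and 3 among them overlap in sequence. With only the probe of highest signal kept per gene, 2 of 6 were called higher, against 24.2% of 17063 genes. In that fit 1 was called lower, against 21.2%. The groups did not overlap for 10 of the 13, beside 78% of all tested probes. Changes called and at least 2-fold were found for 4 exporter probes upward, against 9.15% of all tested probes, and for 1 downward, against 11.4%, or 20.6% for both directions together. The median log2 fold change of the 13 probes, with each probe of a gene counted, was 0.52, beside 0.11 over all tested probes.

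All levels below are log2 processed signals relative to the 75th percentile of the array, so a level of 0 equals that percentile, and each change is the phorone mean minus the control mean on that scale. The 75th percentile itself was 701 and 747 in controls and 563 and 572 with phorone. When the arrays were instead scaled on 7 spiked-in control RNAs, the median change of all tested probes moved from 0.11 to 0.54, and the calls over all gene probes moved from 6175 higher and 4922 lower to 4467 higher and 1608 lower. The mean log2 spike-in signal was 12.21 and 12.96 in controls and 11.88 and 11.72 with phorone, so the controls differed from each other by more than the phorone arrays did. In bulk RNA, fewer cells of a type and less RNA per cell cannot be told apart.

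**Figure D1:**
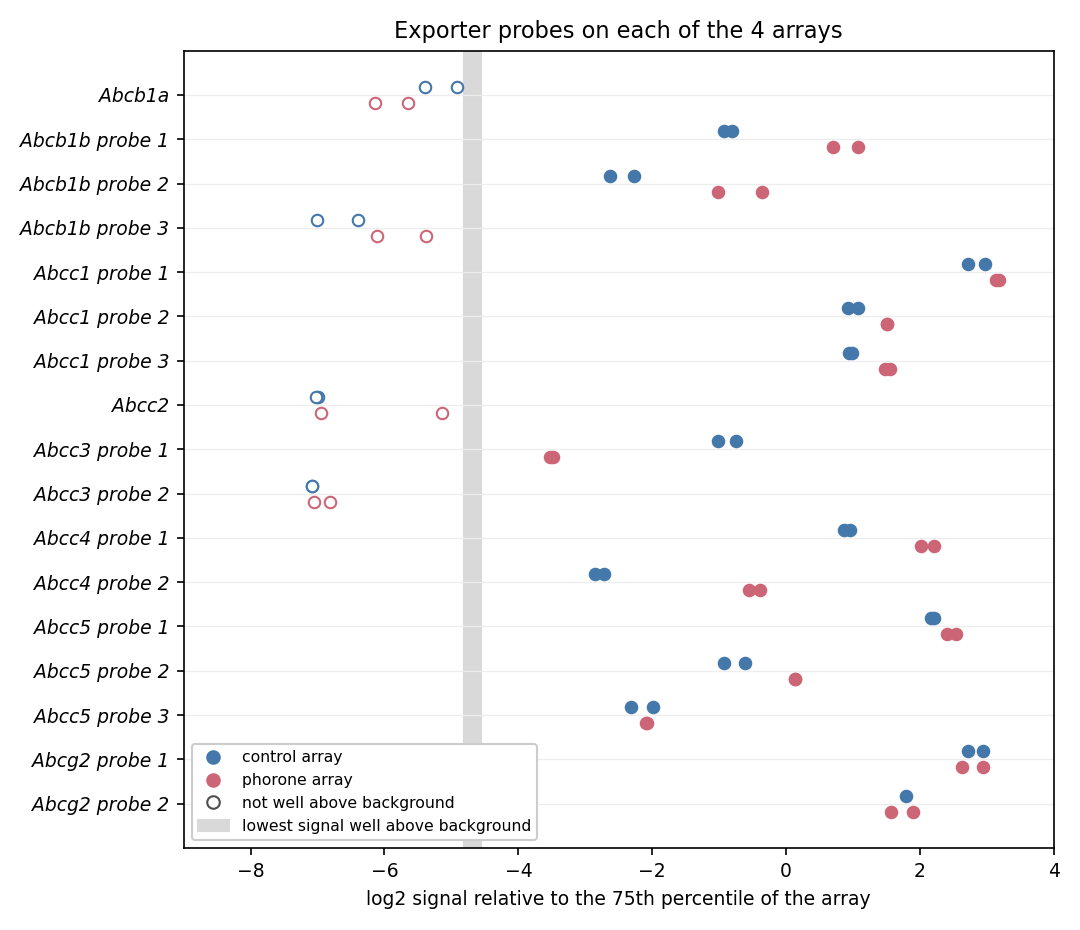
Level of each of the 17 exporter probes on each array (x axis, log2 signal relative to the 75th percentile of the array), with 2 control arrays in blue and 2 phorone arrays in red; open circles are spots not well above background, and the grey band spans the lowest signal well above background on the 4 arrays. Phorone points lie to the right of control points for Abcb1b probes 1 and 2 and both Abcc4 probes, and to the left for Abcc3 probe 1; the control 1 point of Abcg2 probe 2 is missing because that spot was flagged as an outlier.

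Abcb1b encodes a P-glycoprotein, the pump known for exporting chemotherapy drugs from resistant cells. Its probe 1 read -0.81 and -0.93 in controls and 0.70 and 1.07 with phorone. The groups did not overlap, and the mean rose from -0.87 ± 0.09 to 0.89 ± 0.26 (SD, n = 2 each), which is a change of 1.76 (SE 0.17, 3.38-fold, limma adjusted p = 0.00200). Probe 2 read -2.27 and -2.63 without phorone and -1.02 and -0.36 with it. Its change was also 1.76 (SE 0.26, limma adjusted p = 0.00621), and the rise of the probes differed by 0.00 (SE 0.16, limma adjusted p = 0.991 for the difference). Both calls held under each of the alternatives run. Probe 3 was not well above background on any array and was not tested. Probe 2 has the sequence below, shown because it gave the second reading of the same rise. Its whole length holds a reading frame without a stop codon.

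Abcb1b probe 2: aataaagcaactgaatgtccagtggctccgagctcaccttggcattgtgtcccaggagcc

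The other rodent P-glycoprotein gene, Abcb1a, had a single probe. It read -4.91 and -5.40 in controls and -5.64 and -6.14 with phorone, all below the lowest signal called well above background, which lay between -4.81 and -4.55. No fold change is given, since both groups have only an upper bound. The genes are close copies, and neither an Abcb1a nor an Abcb1b probe shared a run of 16 or more bases with a probe of any other gene on the array. That search compared probes only with probes, and matches to whole transcripts were not analysed here. Whether a probe also reads the transcript of another gene was therefore not tested. In the RefSeq order of protein-coding genes on chromosome 5, Abcb1a is followed by Abcb1b and then by Abcb4, a phospholipid carrier of the same family. Abcb4 read -0.80 and -1.10 without phorone and 0.51 and 0.78 with it on its detected probe, a rise of 1.60 (SE 0.18, limma adjusted p = 0.00282), while its other probe was not well above background on any array. Of the 3 neighbouring genes, Abcb1b and Abcb4 therefore rose by similar amounts, and Abcb1a was not measurable.

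Abcc4 exports cyclic nucleotides, prostaglandins and glutathione itself. Probe 1 read 0.96 and 0.86 in controls and 2.20 and 2.02 with phorone. It rose by 1.20 (SE 0.14, 2.30-fold, limma adjusted p = 0.00309), from 0.91 ± 0.07 to 2.11 ± 0.13 (SD, n = 2 each). Probe 2 read -2.85 and -2.72 in controls and -0.39 and -0.56 with phorone. Its rise was 2.31 (SE 0.14, 4.97-fold, limma adjusted p = 0.000663), and in neither probe did the groups overlap. Abcc4 was the exporter with the largest rise on any probe, which exceeded the change of 98.9% of all tested probes. Both calls held under each alternative run.

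The Abcc4 probes did not respond alike. Within each array, the log2 signal of probe 1 exceeded that of probe 2 by 3.82 and 3.58 in controls and by 2.59 and 2.58 with phorone. The response of probe 1 was thereby smaller by 1.12 (SE 0.13, limma adjusted p = 0.0119 over 7196 such pairs, of which 21.4% were called). The size of this gap depends on the processing. With another background correction (normexp), the rise of the dimmer probe 2 was 1.78 rather than 2.31. The rise of probe 1 lay between 1.11 and 1.64 over the alternatives. Per the probe annotation in the files, probe 1 covers 3 RefSeq transcripts of Abcc4 and probe 2 covers 1. Which transcripts the cells carried was not tested.

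**Figure D2:**
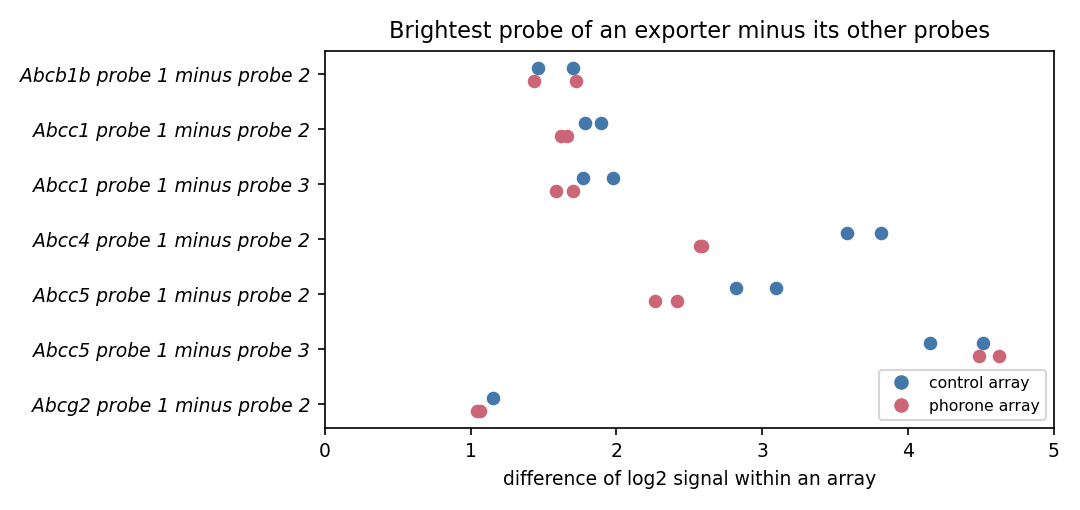
Difference of log2 signal within an array (x axis) between the probe of an exporter with the highest signal and each other tested probe of that gene, 2 control arrays in blue and 2 phorone arrays in red. Only the shift between colours bears on the response to phorone: it is clear of the replicate spread for Abcc4 (3.82 and 3.58 against 2.59 and 2.58) and not called for the other genes.

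Promoter sequences around annotated starts, 250 bases before to 50 after, were taken from RefSeq (build GRCm38.p6), which held 9 windows for 6 of the 8 genes; Abcc1 and Abcc3 had no entry. The windows were searched on both strands for TGACNNNGC, the core of the antioxidant response element bound by the oxidative stress factor NRF2. This motif occurs in 12.4% of the 32544 different promoter windows of that length. It occurred in 4 of the 9 windows, for 3 genes: both starts of Abcc4, Abcc2, and Abcb1a within its transcribed part. No window of Abcb1b, Abcc5 or Abcg2 held these letters. The GC box GGGCGG, found in 35.9% of windows, occurred in the windows of Abcb1b, of the first start of Abcc4 and of the other two starts of Abcg2. At the first Abcc4 start it lies beside the antioxidant core without overlap. A match is a description of the letters and was not tested as a site.

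The 150 bases before each Abcc4 start and before the Abcb1b start are printed because these genes rose most; capitals mark the antioxidant core, which the first Abcc4 start carries on the reverse strand. The first Abcc4 stretch is chr14:118706220-118706369 (minus strand), the second is chr14:118676932-118677081 (minus strand), and that of Abcb1b is chr5:8797997-8798146 (plus strand).
Abcc4 start 1: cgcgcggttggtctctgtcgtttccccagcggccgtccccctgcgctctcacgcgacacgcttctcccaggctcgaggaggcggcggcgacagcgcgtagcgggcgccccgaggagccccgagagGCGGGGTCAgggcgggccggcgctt
Abcc4 start 2: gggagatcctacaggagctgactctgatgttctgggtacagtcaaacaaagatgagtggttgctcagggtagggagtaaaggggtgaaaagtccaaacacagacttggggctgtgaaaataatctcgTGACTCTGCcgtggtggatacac
Abcb1b start: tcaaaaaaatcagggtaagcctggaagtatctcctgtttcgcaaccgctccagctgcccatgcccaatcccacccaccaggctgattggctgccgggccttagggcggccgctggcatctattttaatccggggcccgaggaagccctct

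Abcc3, a pump of the basolateral membrane for glucuronide conjugates and bile acids, was the exporter that fell. Probe 1 read -1.02 and -0.75 in controls and -3.52 and -3.48 with phorone. The group mean went from -0.89 ± 0.20 down to -3.50 ± 0.03 (SD, n = 2 each). Its change was -2.61 (SE 0.15, 6.12-fold lower, limma adjusted p = 0.000605). The spots stayed well above background on all 4 arrays, and only 2.52% of tested probes had a lower fold change. The call held under every alternative run, and with another background correction (normexp) the change was -1.67. Probe 2 of the same gene was dark: it read between -7.09 and -6.81 on the 4 arrays and was not tested. The gene's fall therefore rests on 1 probe. The sequence of the dark probe is shown because it disagrees with probe 1 about whether Abcc3 was detected at all. Its whole length holds a reading frame without a stop codon, whereas the detected probe 1 has no such frame.

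Abcc3 probe 2: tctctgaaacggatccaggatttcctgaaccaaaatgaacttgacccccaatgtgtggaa

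Abcc1 encodes a glutathione conjugate pump present in most cells, which also exports the inflammatory lipid leukotriene C4. Probe 1 read 2.97 and 2.71 without phorone and 3.13 and 3.18 with it. Its change of 0.32 (SE 0.15, 95% interval -0.06 to 0.69) was not called (limma adjusted p = 0.132). Probe 2 read 1.07 and 0.93 without phorone and 1.51 and 1.52 with it, a rise of 0.52 (SE 0.13, limma adjusted p = 0.0268). Probe 3 read 0.99 and 0.94 without phorone and 1.55 and 1.47 with it, a rise of 0.54 (SE 0.12, limma adjusted p = 0.0205). The changes of probes 2 and 3 did not differ from that of probe 1 beyond their error: probe 1 responded less than probe 2 by 0.20 (SE 0.11, limma adjusted p = 0.288) and less than probe 3 by 0.23 (SE 0.13, limma adjusted p = 0.311).

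Probes 2 and 3 of Abcc1 share 19 bases, in capitals below, so they are not separate readings of the transcript. The end of probe 2 is the start of probe 3.
Abcc1 probe 2: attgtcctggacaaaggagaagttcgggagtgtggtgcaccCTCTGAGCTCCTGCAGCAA
Abcc1 probe 3: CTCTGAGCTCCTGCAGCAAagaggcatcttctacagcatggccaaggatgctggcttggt

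Both of these calls were lost under spike-in scaling, where the changes were 0.95 and 0.98 (limma adjusted p = 0.106 and 0.0946), and without control 2, phorone 1 or phorone 2 (limma adjusted p between 0.0552 and 0.144). Before scaling, the processed signal of probe 2 was 1472 and 1421 in controls and 1610 and 1636 with phorone. That of probe 1 was 5482 and 4899 in controls and 4946 and 5175 with phorone, so the unscaled groups overlapped for probe 1 and not for probe 2.

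Abcc5 exports cyclic nucleotides and glutathione conjugates and is present in most tissues. Probe 1 read 2.21 and 2.17 without phorone and 2.55 and 2.40 with it, a change of 0.29 (SE 0.13, 95% interval -0.05 to 0.62) that was not called (limma adjusted p = 0.128). Probe 2 read -0.62 and -0.93 without phorone and 0.13 and 0.13 with it. It rose by 0.90 (SE 0.16, 1.87-fold, limma adjusted p = 0.00914), a call that held under each alternative run in which the probe entered the fit. Probe 3, designed to another RefSeq transcript (NM_176839) than probes 1 and 2 (NM_013790), read -2.31 and -1.98 without phorone and -2.08 and -2.09 with it. Its groups overlapped, and its change was 0.07 (SE 0.16, 95% interval -0.34 to 0.47, limma adjusted p = 0.752). The response of probe 1 was smaller than that of probe 2 by 0.62 (SE 0.15), a difference that was not called (limma adjusted p = 0.0566), and differed from that of probe 3 by 0.22 (SE 0.17, limma adjusted p = 0.448). With only the probe of highest signal kept for each gene, Abcc1 and Abcc5 were not called, and of 6 exporters 2 were higher (Abcb1b and Abcc4) and 1 lower (Abcc3), against 24.2% of 17063 genes called higher and 21.2% called lower in that fit.

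Abcg2, the breast cancer resistance protein, exports sulfate conjugates, porphyrins and many drugs, and marks cells that exclude certain dyes. Probe 1 read 2.71 and 2.95 in controls and 2.95 and 2.63 with phorone. The groups overlapped, and the change was -0.04 (SE 0.17, 95% interval -0.49 to 0.40, limma adjusted p = 0.860). For probe 2, the control 1 spot was flagged as an outlier and dropped, so the fit used 3 arrays: 1.79 on control 2, and 1.90 and 1.57 with phorone. Its change was -0.06 (SE 0.22, 95% interval -0.67 to 0.54, limma adjusted p = 0.840). Under spike-in scaling the estimates turned positive, 0.40 and 0.70, and with the flagged spot kept that of probe 2 was -0.51, in each case without a call. Both intervals include changes of either sign, so they do not show that Abcg2 was constant. Probe 1 is printed as the reading of the exporter with the smallest estimated change, and it too holds a reading frame without a stop codon.

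Abcg2 probe 1: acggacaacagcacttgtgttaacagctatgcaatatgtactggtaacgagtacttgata

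Abcc2 is the pump of the apical membrane of liver, gut and kidney cells, where it sends glutathione and bilirubin conjugates into bile and urine. Its probe read -6.99 and -7.03 without phorone and -6.95 and -5.14 with it. None of the spots was well above background, so no change is given. The phorone 2 spot stood apart from the other 3 but stayed below the lowest signal called well above background.

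**Figure D3:**
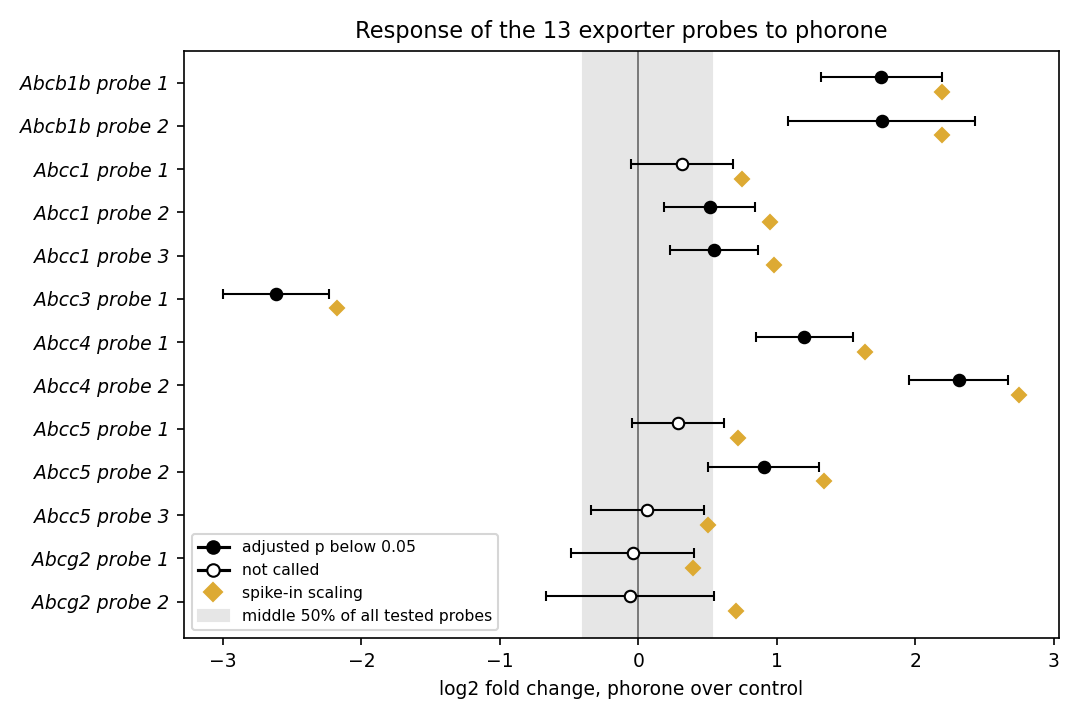
Log2 fold change of the 13 tested exporter probes, phorone over control (x axis), with 95% intervals from limma; filled circles have an adjusted p below 0.05, diamonds give the value under spike-in scaling, and the grey band holds the middle 50% of all tested gene probes. The band comes from the fit without spike-in scaling, so it is a reference for the circles and not for the diamonds. The circles of Abcb1b, Abcc4, Abcc5 probe 2 (0.90) and the single tested probe of Abcc3 lie outside the band. That of Abcc1 probe 3 (0.545) lies just above its upper edge (0.535). The Abcg2 probes lie around 0 and move to 0.40 and 0.70 with the spike-ins, where the median of all tested probes is 0.54.

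Defining markers of the tissues in which these pumps are best known were mostly near background. Of 8 hepatocyte marker genes on the array 1 (Tat) was tested, and the summed signal of the list was 0.17 to 0.26 times the 75th percentile in controls and 0.31 to 0.34 times with phorone. Of 9 endothelial genes, Slc2a1 and Tek were tested, and Pecam1, Cdh5, Kdr, Cldn5, Emcn and Tie1 were not above background. The sum of that list was 12.5 to 18.7 in controls and 34.8 to 36.7 with phorone, nearly all of it from the glucose carrier gene Slc2a1, which rose by 1.24, whereas Tek was at least 1.68-fold lower. Of 8 epithelial genes 2 were tested (sum 0.75 to 0.76 in controls and 0.64 to 0.70 with phorone), and of 6 kidney tubule genes 3 were tested (2.61 to 3.81 and 1.21 to 1.26). Aqp1 fell by 2.47 and carried the change of that sum, Cubn gave 0.62 and Lrp2 -0.08, neither called, with Slc34a1, Slc5a2 and Slc22a6 not above background. Of 8 blood and macrophage genes 4 were tested (4.22 to 5.03 and 5.07 to 5.11), with Ptprc, Itgam, Fcgr3 and Adgre1 not above background. Cd14 was bright, with a mean of 1.98 in controls and 2.11 with phorone, and was not called. Cd68 rose by 1.26, Lyz2 fell by 1.74 on its tested probe, and Csf1r gave 1.33, not called. All 11 fibroblast genes were well above background in controls and 9 were with phorone (sum 1593 to 1669 and 703 to 743). Of the 11, 8 fell on at least 1 probe, among them the collagen Col3a1, by 3.38 on 1 probe and at least 3.76-fold on the other. Vim, Thy1 and Fn1 were called on no probe, and the brightest probe of Col1a1 gave -0.30, not called. The part of these marker changes in the exporter values was not tested.

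Other transporters of the B and C families did not move as a block. Of 11 tested probes for 9 of 15 such genes, 2 were higher and 4 lower (median -0.05). Among all tested gene probes, 25.5% were called higher and 20.3% lower. Abcb6, a mitochondrial and membrane carrier of porphyrins, read 0.53 and 0.51 without phorone and 3.03 and 2.99 with it, a rise of 2.49 (SE 0.12, limma adjusted p = 0.000453). Besides it and Abcb4, no gene of the list rose. The antigen peptide carriers Tap2 and Tap1 fell by 1.59 (SE 0.15) and 1.34 (SE 0.17; 1.23 on its other probe), and the bile salt pump gene Abcb11 by 1.23 (SE 0.19). Under spike-in scaling the list had 4 probes higher and 1 lower. The calls of Abcb6, Abcb4 and Tap2 held under each alternative run, and those of Tap1 and Abcb11 under all but spike-in scaling; with normexp the change of Abcb11 was -0.55.

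The A, D, E, F and G families had 13 of 29 tested probes higher and 10 lower (median 0.51), beside 25.5% and 20.3% overall. Abca1, which loads cholesterol onto lipoproteins, read 2.25 and 2.39 without phorone and -0.12 and -0.71 with it, so it fell by 2.73 (SE 0.23, limma adjusted p = 0.00135). The sterol carrier gene Abcg5 fell by 2.78 (SE 0.15) and Abca2 by 0.90 (SE 0.20; 0.90 on its other probe). The tested probes of Abca9 and Abca8a were well above background only in controls and were at least 8.49-fold and at least 2.37-fold lower with phorone. Of the other Abca9 probes, neither tested, 1 was well above background on phorone 2 alone. Such a bound sets the mean of the brighter group against, on each dim array, the higher of the probe's own value and the lowest signal well above background. Abca5 had no single direction. It rose by 1.61 (SE 0.20) on 1 probe (control mean -2.90) and was at least 1.24-fold higher on another. Its brightest probe (control mean 0.24) gave -0.64, called lower. The peroxisomal Abcd3 rose by 1.07 (SE 0.24) on a probe with a control mean of -3.09 and by 0.73, also called, on another. Its brightest probe (control mean 3.58) gave 0.29, not called. Abcg4 rose by 0.96 (SE 0.27) and the translation factor Abcf1 by 0.81 (SE 0.13, and 0.66 on its other probe). Under spike-in scaling 9 probes were higher and 4 lower. The call of Abcd3 held under 13 of 16 alternatives and those of Abca2 and Abcg4 under 14 of 17. With normexp the changes of Abcg5 and Abcg4 were -1.51 and 0.54.

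Tested probes of solute carriers that move organic anions, nucleosides and peptides were called lower more often than higher. Of 16 tested probes for 10 of 27 genes, 1 was higher and 11 were lower (median -1.56), beside 25.5% and 20.3% of all probes. Most of these 11 were well above background only in controls, so they passed the filter through the group where they were high. With only probes well above background on all 4 arrays, 1 was higher and 4 were lower. Slco2a1, the prostaglandin uptake carrier, rose by 1.89 (SE 0.18, limma adjusted p = 0.00198), from -3.42 and -2.99 to -1.27 and -1.35. The nucleoside carrier Slc29a1 fell by 1.77 (SE 0.13), Slco5a1 by 1.44 (SE 0.29) and Slco3a1 by 0.90 (SE 0.18; -0.09, not called, on its other probe). The peptide carrier Slc15a2 was well above background only in controls on all 4 of its probes, with bounds of at least 4.16-fold to at least 34.6-fold lower, which makes 4 of the 11 lower probes a single gene. Slco4a1 was at least 1.30-fold lower. Counted as genes, 1 was higher and 7 were lower, and under spike-in scaling 1 probe was higher and 8 were lower. The calls of Slco5a1 and Slco3a1 were lost under spike-in scaling, without a filter on dim probes, and without control 1 or phorone 2 respectively, and that of Slco4a1 with normexp, where Slco5a1 gave -0.52.

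**Figure D4:**
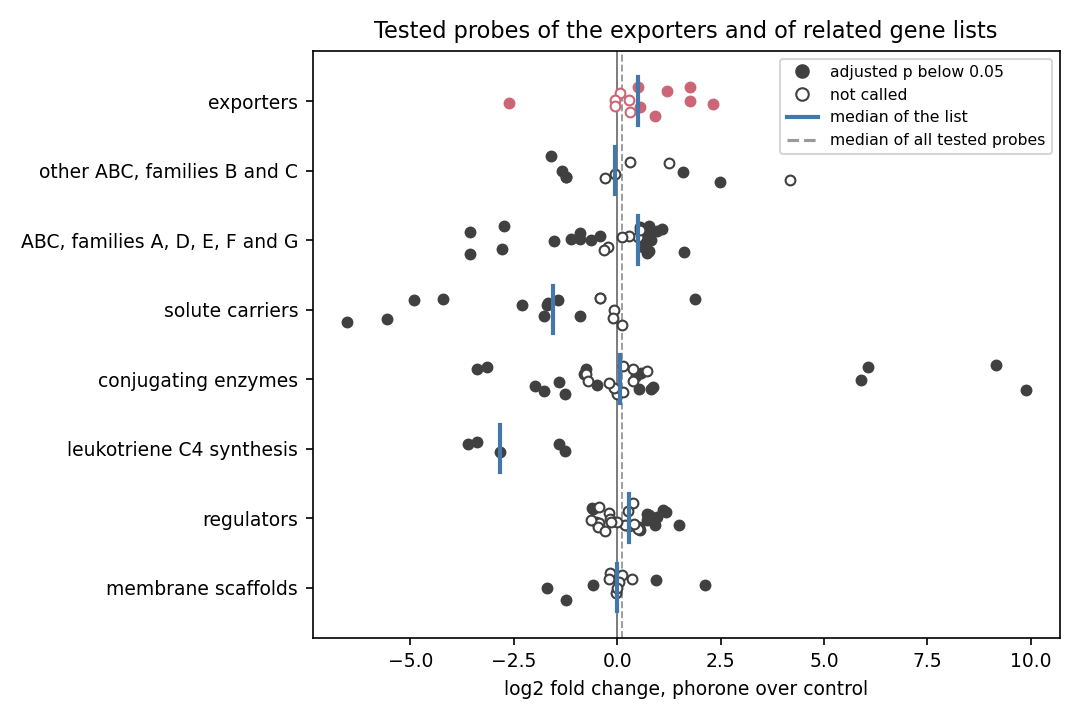
Log2 fold change, phorone over control (x axis), of every tested probe of the exporters (red) and of related gene lists (grey), with filled circles for an adjusted p below 0.05, a blue bar for each list's median and a dashed line for the median of all tested probes (0.11). The exporter median of 0.52 lies beside that of the A, D, E, F and G families (0.51), whereas the medians of the solute carriers (-1.56) and of leukotriene C4 synthesis (-2.84) lie to the left. Both of these lower medians include probes that were well above background only in controls.

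The enzymes that make the conjugates for these pumps were called in both directions. Of 28 tested probes for 23 of 44 genes, 9 were higher and 9 lower (median 0.07), beside 25.5% and 20.3% of all probes. The glutathione transferase genes Gsta1 and Gsta3 rose by 9.17 (SE 0.21) and 6.06 (SE 0.19; 5.90 on its other probe), far more than any exporter, and their close copy Gsta2 by at least 352-fold, although probes of such near-identical genes may read one another. Gsto1 rose by 0.86 (SE 0.14). Gstt1 fell by 3.39 (SE 0.16), Ugt1a6b, a glucuronic acid transferase, by 1.76 (SE 0.14) and Mgst2 by 1.40 (SE 0.13), and Sult1a1 and Gstm6 were at least 2.77-fold and at least 1.86-fold lower. Ugt1a6b shares its later exons with its neighbours in the same gene cluster, so its probe may read them too. Under spike-in scaling 7 probes were higher and 4 lower, the call of Mgst2 among those lost, and the call of Gsto1 was lost without phorone 2.

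Leukotriene C4 is the classical glutathione conjugate that Abcc1 exports. For its synthesis and processing, 5 probes for 5 of 11 genes were tested. All were called lower (median -2.84), against 20.3% of all tested gene probes. The Ggt5 probe was well above background only in controls, so it passed the filter through the group where it was high. Alox5ap, which presents arachidonic acid to the lipoxygenase, fell by 3.60 (SE 0.16, limma adjusted p = 0.000369), from 1.11 and 1.16 to -2.63 and -2.30. The dipeptidase gene Dpep1 fell by 2.84 (SE 0.16) and Mgst2 by 1.40, as above, and Ggt5, a glutamyl transferase that trims leukotriene C4, was at least 4.16-fold lower. The lipoxygenase gene Alox5 and the synthase gene Ltc4s were not among the tested genes. Under spike-in scaling 3 of the 5 probes were lower, and the call of Ggt5 was lost without control 2.

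Of the transcription factors known to act on these exporters, 10 of 28 tested probes were higher and 3 lower (median 0.28). The shares over all tested gene probes were 25.5% and 20.3%. The highest rises were those of the nuclear receptor genes Nr1h3, the sterol sensor LXR alpha, by 1.50 (SE 0.13), Nr1i3, the drug sensor CAR, by 1.18 (SE 0.15) and Nr1h4, the bile acid receptor FXR, by 1.12 (SE 0.20). All 3 were dim, and Nr1h3 read -4.46 and -4.60 without phorone and -3.09 and -2.98 with it. Foxo3 was at least 1.41-fold higher on a probe below background in controls. Rxra fell by 0.62 on 1 probe and rose by 0.78 on another, Nr3c1 fell by 0.52 on 1 probe and rose by 0.72 on another, and Foxo1 fell by 0.57 (its other probe, -0.43, was not called), so the first 2 genes have no single direction. These 3 lower calls were lost under spike-in scaling and without phorone 1 or phorone 2, whereas those of Nr1h3, Nr1i3 and Nr1h4 held under each alternative run, at 0.75, 0.72 and 0.61 with normexp. Nfe2l2, which encodes NRF2, gave 0.29 and 0.19 on its probes and Keap1, its inhibitor, 0.39, none of them called (limma adjusted p = 0.214, 0.309 and 0.0658). The aryl hydrocarbon receptor gene Ahr gave -0.45, also not called, with control 1 at 2.01 above the other arrays at 0.99 to 1.21. Nr1i2, the drug sensor PXR, was not well above background. Under spike-in scaling 8 probes were higher and 0 were lower, and none of the probes on which these genes were named changed sign under an alternative. Other probes of the same genes were not followed through the alternatives.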

How the data were processed

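The members and the gene lists were chosen with earlier results of these data known. The authors deposited scanner intensity values, which per the file headers are Agilent Feature Extraction 10.7.3.1 processed signals (Cy3, custom mouse design) with local background subtracted and no scaling between arrays. Their value table, also deposited, is on a log2 scale: each column equals these signals minus 1 number per array (SD at most 0.0195; medians -4.39, -4.35, -4.37 and -4.30), near the 75th percentile. It served as an alternative. All arrays lay on 1 slide in 1 scan, with controls in 1 row and phorone in the next, so slide row cannot be told apart from group. Each held 61657 spots outside the controls, of which 51.1% to 52.7% were well above background and 0 were saturated. Having 4 arrays limits every value's precision.

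RefSeq (GRCm38.p6) names matched 28136 of 40628 gene probes (69.3%). Outlier-flagged spots were left out, and each array's 75th percentile was subtracted from the log2 signals. Gene probes seen well above background throughout at least 1 group were tested in R 4.3.3 with limma 3.58.1 (two-sided, 2 residual and 3.07 prior degrees of freedom, checked on simulated data), with Benjamini-Hochberg adjustment over all of them at 0.05. An exact permutation of 2 against 2 arrays cannot go below p = 0.333 and was not used. The fit of differences between probes of a gene was added after seeing the data. Named were all members and, per other list, the called probes with the largest change among those above background on all arrays (up to 4 genes each way for ABC lists, 3 for others), plus up to 2 each way seen in a single group, as bounds. One gene under this rule is not reported here. Genes of similar pattern were not sought with 4 arrays in 2 groups. Alternatives covered background correction, scaling, filters, probe choice, moderation, the replicate block and leaving out each array, and, added after seeing the data, keeping outlier-flagged spots.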

Additional observations from a re-analysis of the deposited data

How the results depend on the processing

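Of the exporter calls, those of Abcb1b, Abcc4, Abcc3 and Abcc5 probe 2 held under every alternative in which they were fitted, and 1 exporter probe was lower in all 17 alternatives. The number of exporter probes called higher was 7 and fell to 2 with 1 probe per gene (6 probes tested, beside 24.2% of 17063 genes called higher). The Abcc1 calls were not kept under spike-in scaling (probe 2 at 0.95 and probe 3 at 0.98), without a filter on dim probes (0.52 and 0.54, limma adjusted p = 0.0780 and 0.0634) or when control 2 or either phorone array was left out, over which the values ranged from 0.44 to 0.59 for probe 2 and from 0.51 to 0.58 for probe 3. Abcg2 probe 1 turned positive under spike-in scaling (0.40), without control 2 (0.07) and without phorone 2 (0.12), within a range of -0.20 to 0.12 when 1 array was left out, and probe 2 under spike-in scaling (0.70), whereas keeping its flagged control 1 spot gave -0.51. Abcc5 probe 3 ranged from -0.10 without control 1 to 0.23 without control 2 when 1 array was left out, and was 0.50 under spike-in scaling. None of these reversals concerned a called value.

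Over all gene probes, 6175 higher became 3817 without a filter, and the range was 3311 to 5520 when 1 array was left out; 4922 lower became 1608 under spike-in scaling, and the range was 3278 to 4827. Spike-in scaling also gave 4 lower probes in the A to G families, 4 among conjugating enzymes, 1 among membrane scaffolds, 4 higher and 1 lower among the other B and C families, 3 lower in leukotriene C4 synthesis and 0 lower among regulators. Without a filter, 7 probes were higher in the A to G families, 1 among scaffolds and 6 among regulators, with 0 regulators lower. With 1 probe per gene, 6 were higher in the A to G families, 1 among scaffolds and 5 among regulators, and 6 solute carriers were lower. Restricting to probes above background on all arrays left 1 scaffold higher, 4 solute carriers lower and 5 regulators lower. Regulators called lower were 6 with normexp and 5 with an intensity trend. Leaving out 1 array gave 5 to 11 higher and 5 to 8 lower in the A to G families, 5 to 8 higher conjugating enzymes, 0 to 2 higher scaffolds, 2 to 4 higher in the other B and C families, 0 to 1 higher in leukotriene C4 synthesis, and 4 to 9 higher and 0 to 4 lower regulators. The cause of these shifts was not tested, except that fewer probes or arrays entered where some were left out.

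With the replicate number as a block, 6 of 12 exporter probes were higher and 1 lower, against 5252 higher and 4501 lower of 24207 gene probes. Abcc1 probe 2 (0.52, limma adjusted p = 0.0588) was the exporter call lost. Deviations of arrays with the same number correlated at -0.04 over 24210 probes, so the numbers were not shown to pair the arrays.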

Other observations

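Membrane scaffolds hold several of these pumps at the cell surface. Of 12 tested probes for 8 such genes, 2 were higher and 3 lower (median -0.01), beside 25.5% and 20.3% of all tested probes. The PDZ-domain adaptor genes Slc9a3r2 and Slc9a3r1, known for anchoring membrane transporters, fell by 1.69 (SE 0.15, limma adjusted p = 0.00164) and by 1.23 (SE 0.17, limma adjusted p = 0.00529). Slc9a3r2 read -0.27 and 0.01 without phorone and -1.80 and -1.84 with it, so its groups did not overlap. Cav1, which encodes the caveola coat protein caveolin, fell by 0.59 (SE 0.15) on 1 probe and gave -0.02, not called, on the other. Msn, which encodes the actin linker moesin, rose by 0.93 (SE 0.16) on 1 of 3 probes, with 0.35 and -0.20, not called, on the others. Pdzk1 was at least 1.47-fold higher on a probe below background in controls. The call of Slc9a3r1 was lost under spike-in scaling and that of Msn without phorone 2. The call of Pdzk1 was lost without a filter on dim probes, without control 1 and without phorone 2, and that of Cav1 under these, spike-in scaling, the replicate block and without phorone 1. The call of Slc9a3r2 held under each alternative run.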
